A study of Mus musculus with 4 samples.

Results

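The genes described here encode the matrix metalloproteinases (Mmp), the ADAMTS proteases (Adamts) and the tissue inhibitors of metalloproteinases (Timp). They were chosen by name, from the gene name that the array files give each probe. The name rule uses no measured values, but the members were chosen with earlier results of these data known. The rule found 42 genes, 21 Mmp, 17 Adamts and 4 Timp, among 27657 genes or transcripts, on 73 of the 41174 probes of the array. Of the 42 genes, 36 were well above background on at least 1 array and entered the test, and the other 6 (Mmp7, Mmp20, Mmp21, Adamts13, Adamts18 and Adamts20) were below that mark on all 4 arrays.

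Total RNA from 3 mouse neural progenitor cell (NPC) lines and from 1 tissue pool, Mixture, was hybridised to 4 one-colour Agilent arrays, 1 array per sample, to find transcription factors that stand out in NPCs. NS21 (129/Ola) came from embryonic stem cell line 21, NS195R (129/Sv) from line 195R and NSEB5-2C (129/Ola) from line EB5. Mixture held equal masses of Swiss Webster RNA from day 11 embryos and from lung, liver, spleen, thymus, kidney and heart. The labels conflict here, since another one calls Mixture an NPC line given Dox. Macrophage and neutrophil markers well above background numbered 3, 3 and 2 of 12 in NS21, NS195R and NSEB5-2C, against all 12 in Mixture. Adult brain was not among the pooled tissues, and no NPC line has the strain of Mixture, so every ratio to Mixture holds both a strain and a cell type difference, which cannot be told apart. Each line is 1 culture on 1 array, so line differences and technical error cannot be told apart in the spread between lines, which is what the p-values rest on. In such bulk RNA, fewer cells of a type and less RNA per cell cannot be told apart.

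Values are processed signals, scaled so that percentile 75 of every array equals 245 units. The lowest signal that counted as well above background lay between 6.72 and 7.68 units, and spots well above background numbered between 23983 and 26840 of 43379. Repeated probes had a median SD between 0.0614 and 0.0728 on the log2 scale. Of 10 neural progenitor markers, 8 were well above background in NSEB5-2C, 7 in NS21 and 10 in NS195R, against 9 in Mixture. Sox2, Fabp7 and Hes5 were not well above background in NS21, and Fabp7 and Hes5 were not in NSEB5-2C. Of 12 fibroblast and mesenchyme markers, 11, 12 and 9 were well above background in NS21, NS195R and NSEB5-2C. Their summed signal was 18338 in NSEB5-2C, 9501 in NS21 and 16653 in NS195R, against 83546 in Mixture.

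Matrix metalloproteinases are zinc enzymes that cut collagens, laminins, fibronectin and other proteins of the extracellular matrix, and most are secreted as inactive precursors. ADAMTS proteases are secreted relatives that carry thrombospondin repeats. Some of them cut the large proteoglycans of cartilage and brain, and others trim procollagen. TIMPs bind the active site of these enzymes and hold them in check. In the nervous system these families act in cell migration, in remodelling of the matrix around cells and in axon growth.

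Much of the Mmp family is a row of neighbouring genes on chromosome 9, in the order Mmp13, Mmp12, Mmp1b, Mmp3, Mmp1a, Mmp10, Mmp8, Mmp27, Mmp20 and Mmp7 in the RefSeq annotation of GRCm38.p6, with 8 of its 10 genes under the name rule. The strings below are the 120 bases before the RefSeq start of 6 genes of this row, 5′ to 3′ on the gene's strand. They were picked from the row for holding the letters of an AP-1 site, printed in capitals, so that all 6 hold them is set by the choice. The listed windows of Mmp8 and Mmp20 in this row hold no such letters. Of these 6 genes 5 had their highest level in the same line, though Mmp12 there had only 13.3 units. AP-1 is a dimer of Fos and Jun proteins and is known from human and mouse work to act on promoters of this gene row.
Mmp13, chr9:7272394-7272513, plus strand: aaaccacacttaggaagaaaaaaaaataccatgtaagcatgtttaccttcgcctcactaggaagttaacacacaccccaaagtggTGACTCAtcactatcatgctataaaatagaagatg
Mmp12, chr9:7347254-7347373, plus strand: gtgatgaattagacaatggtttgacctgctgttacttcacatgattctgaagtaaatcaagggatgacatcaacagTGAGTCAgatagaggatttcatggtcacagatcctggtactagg
Mmp3, chr9:7445702-7445821, plus strand: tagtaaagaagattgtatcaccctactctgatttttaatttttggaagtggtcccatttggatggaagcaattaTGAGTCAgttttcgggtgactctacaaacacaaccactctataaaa
Mmp1a, chr9:7464021-7464140, plus strand: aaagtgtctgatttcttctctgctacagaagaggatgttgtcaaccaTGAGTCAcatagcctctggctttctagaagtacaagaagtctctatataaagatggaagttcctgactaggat
Mmp10, chr9:7502222-7502341, plus strand: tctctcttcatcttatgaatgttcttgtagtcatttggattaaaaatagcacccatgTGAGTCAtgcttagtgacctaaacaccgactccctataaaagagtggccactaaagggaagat
Mmp7, chr9:7691970-7692089, plus strand: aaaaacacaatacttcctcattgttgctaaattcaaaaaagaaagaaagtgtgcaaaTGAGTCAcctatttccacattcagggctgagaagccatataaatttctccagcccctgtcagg

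The capitals are TGAGTCA or, on the other strand, TGACTCA. They begin 35 bases before the start in Mmp13, 44 in Mmp12 (at 1 of its 2 listed starts), 46 in Mmp3, 73 in Mmp1a, 63 in Mmp10 and 63 in Mmp7 (at 1 of its 2 listed starts). Windows reaching from 250 bases before to 50 after a start were listed for 28 of the 42 genes (31 windows). Of these 31 windows 6 held the motif, those of the 6 genes above. Over all 32851 windows listed, the share with the motif was 5.20%. The ETS motif AGGAAG or CTTCCT was in 15 of the 31 windows and in 35.4% of all windows. A match is a run of letters and not a site shown to be bound. The next 4 strings are the same 120 bases of genes that the results below turn on and whose window holds no such AP-1 letters.
Mmp8, chr9:7558309-7558428, plus strand: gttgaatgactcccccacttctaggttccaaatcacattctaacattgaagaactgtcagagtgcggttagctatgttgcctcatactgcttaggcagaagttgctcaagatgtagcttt
Timp1, chrX:20870046-20870165, plus strand: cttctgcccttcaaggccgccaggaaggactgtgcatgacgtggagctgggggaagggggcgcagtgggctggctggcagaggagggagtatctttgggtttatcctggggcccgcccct
Mmp15, chr8:95352176-95352295, plus strand: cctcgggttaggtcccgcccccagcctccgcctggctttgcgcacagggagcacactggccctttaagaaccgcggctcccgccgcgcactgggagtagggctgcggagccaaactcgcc
Timp4, chr6:115252206-115252325, minus strand: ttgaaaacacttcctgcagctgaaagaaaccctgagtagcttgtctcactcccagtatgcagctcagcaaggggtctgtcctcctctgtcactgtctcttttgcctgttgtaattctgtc

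Wide differences between the 3 NPC lines made up a larger share of these genes than of all genes on the array. Of the 42 genes, 28 (66.7%) lay at least 2-fold above or below both other lines in at least 1 line, against 23.6% of all 27657 genes or transcripts. The highest line exceeded the lowest at least 4-fold for 23 genes (54.8%), against 14.6% of all, at least 16-fold for 9 genes (21.4%), against 4.44% of all, and at least 100-fold for 5 genes (11.9%), against 0.770% of all. Those 5 were Mmp3, Mmp10, Mmp13, Mmp15 and Timp4. In these counts a dim value was lifted to its array's floor, the lowest signal that passed the background mark there. Of 17 members that passed that mark on every array, 14 (82.4%) were 2-fold from both other lines, against 27.8% of the 12728 such genes, and 10 (58.8%) spanned 4-fold, against 16.3%. These counts are sizes, with 1 array per line. The limma test of each line against the others, given after the inhibitors, called 0 genes. With normexp background correction, which compresses dim values, 12 genes exceeded the 4-fold span, against 5.98% of all.

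**Figure D1:**
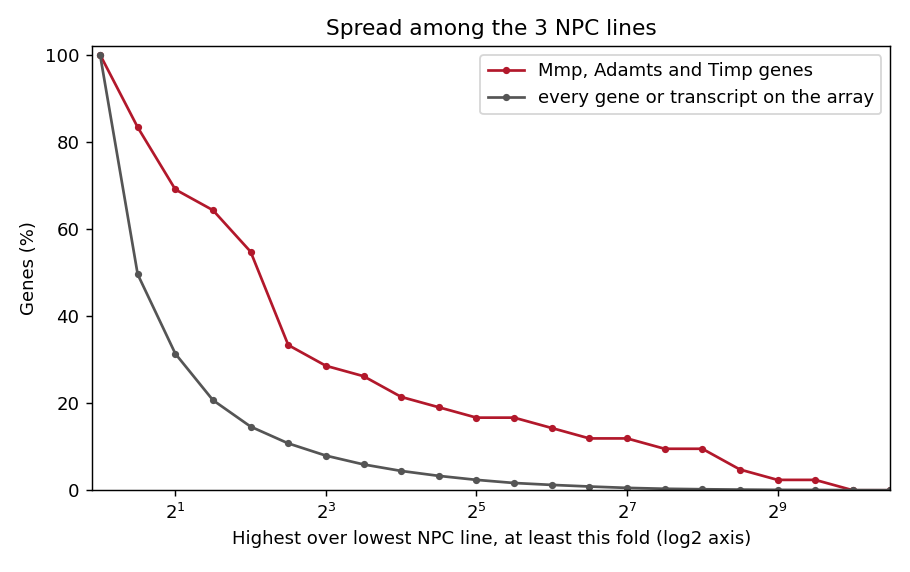
Share of genes (vertical axis, percent) whose highest NPC line exceeded the lowest by at least the fold on the horizontal axis (log2 scale), for the 42 Mmp, Adamts and Timp genes and for every gene or transcript on the array. At 4-fold the curves stand at 54.8% for the Mmp, Adamts and Timp genes and 14.6% for every gene.

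The stromelysin genes Mmp3 and Mmp10 and the collagenase genes Mmp13 and Mmp1a of the chromosome 9 row were highest in NSEB5-2C, while the collagenase gene Mmp8 was measured in Mixture alone. Mmp3, stromelysin, which cuts proteoglycans and fibronectin and activates other Mmp precursors, had 15966 units in NSEB5-2C, against 41.5 in NS21, 16.6 in NS195R and 33.5 in Mixture. NSEB5-2C thus exceeded the next line 384-fold, the largest such step among the 42 genes, and Mixture 477-fold. Mmp10, the second stromelysin, had 2116 units in NSEB5-2C, against 276 in NS21, while NS195R (3.37) and Mixture (1.99) were not well above background. NSEB5-2C exceeded NS21 7.67-fold and NS195R at least 315-fold. Against Mixture, Mmp10 was at least 275-fold higher in NSEB5-2C and at least 35.9-fold higher in NS21.

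Mmp13, a collagenase of cartilage and bone, had 1964 units in NSEB5-2C, against 84.2 in NS21 and 74.1 in Mixture, and was not well above background in NS195R (6.40). NSEB5-2C was 23.3-fold above NS21 and at least 292-fold above NS195R. Mmp1a, an interstitial collagenase of rodents, was well above background in NSEB5-2C alone, at 29.3 units, against 1.73 in NS21, 1.57 in NS195R and 1.93 in Mixture. Its second probe gave 21.7 units in NSEB5-2C, and the other 3 arrays were not well above background. Mmp1b is a close copy of Mmp1a, and whether these probes also detect it was not tested. Mmp12, macrophage elastase, was well above background only in NSEB5-2C (13.3 units) and there less than 2-fold above the floor of the other lines.

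The rest of the row was not measured in the NPC lines. Mmp8 was well above background in Mixture alone, and Mmp20, an enzyme of tooth enamel, and Mmp7, matrilysin, on no array. The measured genes Mmp13, Mmp12, Mmp3, Mmp1a and Mmp10 therefore lie next to each other, apart from Mmp1b, and Mmp8, Mmp20 and Mmp7 lie on one side of them.

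**Figure D2:**
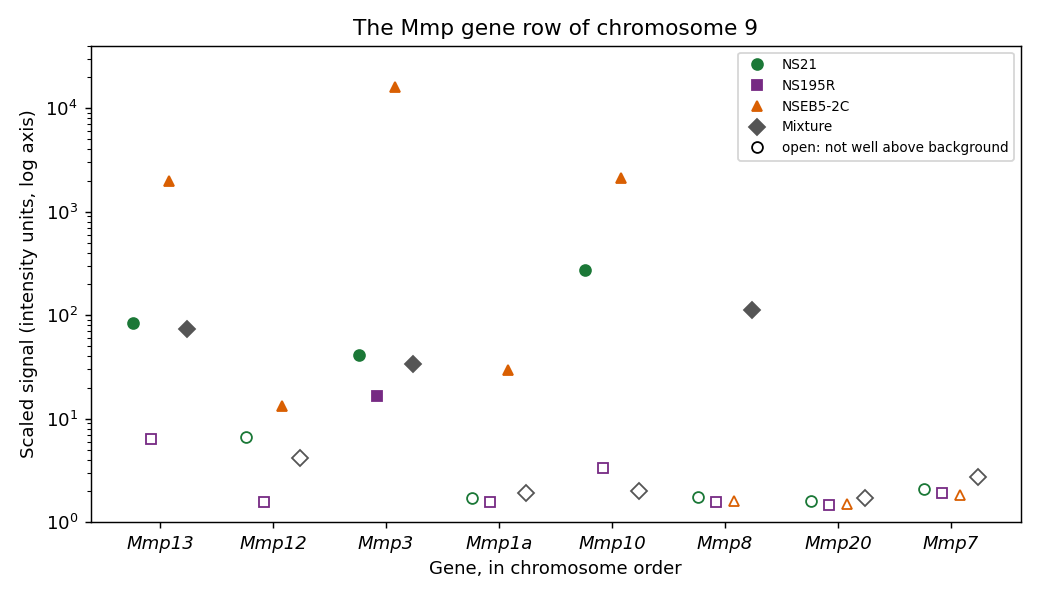
Scaled signal (vertical axis, log scale) of the 8 genes of the chromosome 9 row under the name rule in chromosome order (horizontal axis), 1 point per array, open where not well above background. NSEB5-2C stands highest for Mmp13, Mmp12, Mmp3, Mmp1a and Mmp10, and Mmp8 is well above background only in Mixture, at 111 units.

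Gelatinases, which cut denatured collagen and basement membrane collagen, split between lines. Mmp2 had 2076 units in NSEB5-2C, against 961 in NS195R, 110 in NS21 and 608 in Mixture. NSEB5-2C was 2.16-fold above NS195R, and NS21 was the lowest line, 18.8-fold under NSEB5-2C. Mmp9 was highest in NS21 among the lines, with 29.1 units in NS21, while NS195R (6.27) and NSEB5-2C (6.5) were not well above background, against 124 in Mixture. A second Mmp9 probe is spotted 10 times on each array. Its copies ran from 29.0 to 43.0 units in NS21 and from 128 to 149 in Mixture. In NS195R 1 of 10 copies was well above background, and in NSEB5-2C 1 of 10. The copies are spots on the same array, so their range shows the error of spots and not that of samples. Both probes place NS21 highest among the lines and under Mixture.

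Mmp11, the third stromelysin by name and one that is activated inside the cell, was highest in NS21. It had 958 units in NS21, against 419 in NSEB5-2C, 176 in NS195R and 168 in Mixture. NS21 was 2.29-fold above NSEB5-2C, and NS195R lay near Mixture.

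Membrane-bound Mmp genes differed in which line was highest. Mmp14 encodes a membrane enzyme that cuts collagen and activates the Mmp2 precursor, and it had 1109 units in NSEB5-2C, against 4561 in NS195R, 2970 in NS21 and 1695 in Mixture. NSEB5-2C was the lowest line, and the highest line exceeded it 4.11-fold by the kept probe and 4.51-fold by the second. Mmp15, a second transmembrane member, had 2587 units in NS195R, against 47.3 in NS21, 4.13 (not well above background) in NSEB5-2C and 195 in Mixture. NS195R was 54.7-fold above NS21, at least 385-fold above NSEB5-2C and 13.2-fold above Mixture. NS21 and NSEB5-2C both lay under Mixture, NSEB5-2C at least 29.1-fold.

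Mmp16, also a transmembrane enzyme, had 21.8 units in NS21, against 69.2 in NS195R, 121 in NSEB5-2C and 23.2 in Mixture. NS21 was thus the low line and near Mixture. Mmp24, a transmembrane enzyme of neural tissue, was well above background only in NS195R, at 21.9 units, against 5.12 in NS21, 1.75 in NSEB5-2C and 8.5 in Mixture. Mmp17, which is held by a lipid anchor, had 41.2 units in NSEB5-2C, against 365 in NS21, 261 in NS195R and 93.2 in Mixture. NSEB5-2C was 6.34-fold under the nearer line, and both probes of Mmp17 were highest in NS21. Mmp23 had 13.8 units in NS195R, against 53.7 in NS21, 75.2 in NSEB5-2C and 165 in Mixture, so that NS195R was lowest. Mmp25, Mmp19 and Mmp28 stayed under 15 units on every array by the kept probe.

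Adamts genes were most often highest in NS195R. Well above background there were 14 of the 17 Adamts genes, against 9 in NS21, 8 in NSEB5-2C and 12 in Mixture. The shares were 82.4% in NS195R, 52.9% in NS21, 47.1% in NSEB5-2C and 70.6% in Mixture, beside 57.7%, 55.6%, 54.1% and 62.0% of every gene in the same order. NS195R exceeded each other line 2-fold or more for 7 Adamts genes, 2 Mmp genes and Timp4, together 10 of 42, against 7.37% of all genes. In NSEB5-2C 6 of 42 lay as far above (5 Mmp genes and Timp1, no Adamts gene), against 4.02% of all, and in NS21 3 of 42, against 5.23% of all. Genes 2-fold or more under both other lines numbered 4 of 42 in NS21, against 2.91% of all, 7 in NS195R, against 4.22%, and 5 in NSEB5-2C, against 4.52%. With median scaling the NSEB5-2C count was 10 and with normexp the NS195R count was 6. NS195R is also the one line of strain 129/Sv, so line and strain cannot be told apart. Some markers of brain cell types also stood higher there. The summed signal of 5 oligodendrocyte markers was 18304 in NS195R, against 492 in NS21, 326 in NSEB5-2C and 715 in Mixture. Nearly all of it was Olig1 (13002) and Olig2 (5261), while Mbp, a gene of myelin, was not well above background in NS195R (5.36), against 451 in NS21, 315 in NSEB5-2C and 675 in Mixture. The summed signal of 5 astrocyte markers was 5526 in NS195R, against 217 in NS21, 250.3 in NSEB5-2C and 5723 in Mixture. Most of it was S100b in NS195R (4277) but Aldh1l1 in Mixture (5234), so these 2 sums rest on different genes. Of these markers, 4 passed the background mark in NS195R, 2 in NS21, 2 in NSEB5-2C and 4 in Mixture. Gfap did not pass it in NS195R (1.89) or in any other sample. For 5 neuron markers the summed signal was 2432 in NS195R, against 643 in NS21, 207 in NSEB5-2C and 685 in Mixture. Map2 made up 2177 of that sum in NS195R, while Tubb3 was lowest there, with 59.9 units, against 547 in NS21, 140 in NSEB5-2C and 418 in Mixture. Their part in the NS195R counts was not tested.

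The procollagen N-proteinase genes, whose enzymes trim the ends of fibrillar procollagen, were among them. Adamts2 had 163 units in NS195R, against 8.46 in NS21, 1.49 (not well above background) in NSEB5-2C and 1410 in Mixture. NS195R was 19.2-fold above NS21, and all 3 lines lay at least 4-fold under Mixture by the kept probe. By another probe NS195R lay above Mixture, with 27.9 units in NS195R, against 11.01 in Mixture. Of the 3 probes of Adamts2 measured in a line, each was highest in NS195R. Adamts3 was measured only in NS195R among the lines, at 31.0 units, against 2.03 in NS21, 1.81 in NSEB5-2C and 13.6 in Mixture. The other probes of Adamts3 were not well above background on any array (2.10 and 4.96 units in NS195R).

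The proteoglycan-cleaving enzymes did not share one pattern. Adamts5, an aggrecanase, had 189 units in NS195R, against 51.9 in NSEB5-2C, 30.5 in NS21 and 263 in Mixture, so that NS195R was 3.65-fold above NSEB5-2C. Adamts15 had 2.50 units (not well above background) in NSEB5-2C, against 85.1 in NS195R, 82.7 in NS21 and 320 in Mixture. Its neighbour on chromosome 9, Adamts8, was highest in NS21 among the lines, with 104 units, against 45.4 in NS195R, 44.8 in NSEB5-2C and 216 in Mixture. Both of these neighbours were under Mixture in every line. Adamts9 had 266 units in NSEB5-2C, against 940 in NS21, 808 in NS195R and 167 in Mixture, with NSEB5-2C lowest. Adamts1 had 232 units in NS21, against 530 in NS195R, 683 in NSEB5-2C and 891 in Mixture. Adamts1 and Adamts5, neighbours on chromosome 16, thus had different highest lines, but for Adamts1 NSEB5-2C exceeded NS195R only 1.29-fold. NS21 was the lowest line for both genes.

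Adamts12 and Adamts7 both encode enzymes that cut cartilage oligomeric matrix protein. Adamts12 had 419 units in NS195R, against 9.45 in NSEB5-2C, 3.77 (not well above background) in NS21 and 36.1 in Mixture. NS195R was 44.4-fold above NSEB5-2C by this probe, but another probe was highest in NS21 at 16.1 units, against 8.75 in NS195R, so that the probes disagree. Adamts7 had 230 units in NS21, against 570 in NS195R, 1071 in NSEB5-2C and 112 in Mixture. NS21 was lowest, and the second probe gave the same order of lines. Adamts16, Adamts19 and Adamts6 passed the background mark in NS195R alone among the lines. Adamts16 had 104 units in NS195R, against 4.03 in NS21, 1.58 in NSEB5-2C and 8.03 in Mixture. Adamts19 had 47.7 units in NS195R, against 1.78 in NS21, 1.65 in NSEB5-2C and 14.6 in Mixture, where it also passed that mark. Adamts6 had 37.4 units in NS195R, against 7.17 in NS21, 7.79 in NSEB5-2C and 5.27 in Mixture. All 3 genes were thus dim or unmeasured outside NS195R. Adamts10, a gene linked to fibrillin fibres, had between 76.7 and 118 units in the lines, against 45.1 in Mixture, and the lines lay within 1.54-fold.

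The inhibitor genes divided the lines as well. Timp1, an inhibitor of most secreted Mmp enzymes, had 24635 units in NSEB5-2C, against 7483 in NS21, 376 in NS195R and 437 in Mixture. NSEB5-2C was 3.29-fold above NS21 and 65.6-fold above NS195R, and NS195R lay near Mixture. The other 2 probes of Timp1 gave 75.1-fold and 87.1-fold for NSEB5-2C over NS195R and the same order of lines. Timp4, an inhibitor found mainly in brain and heart, was highest in NS195R. It had 981 units in NS195R, against 4.05 in NS21 and 5.28 in NSEB5-2C, both not well above background, and 95.7 in Mixture. NS195R was at least 133-fold above both other lines and 10.3-fold above Mixture. Timp2, which helps Mmp14 to activate Mmp2, had 3658 units in NS195R, against 7569 in NS21, 14032 in NSEB5-2C and 7047 in Mixture, a span of 3.84-fold with NS195R lowest. Timp3, which binds to the matrix and also inhibits ADAMTS enzymes, spanned 1.81-fold among the lines.

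**Figure D3:**
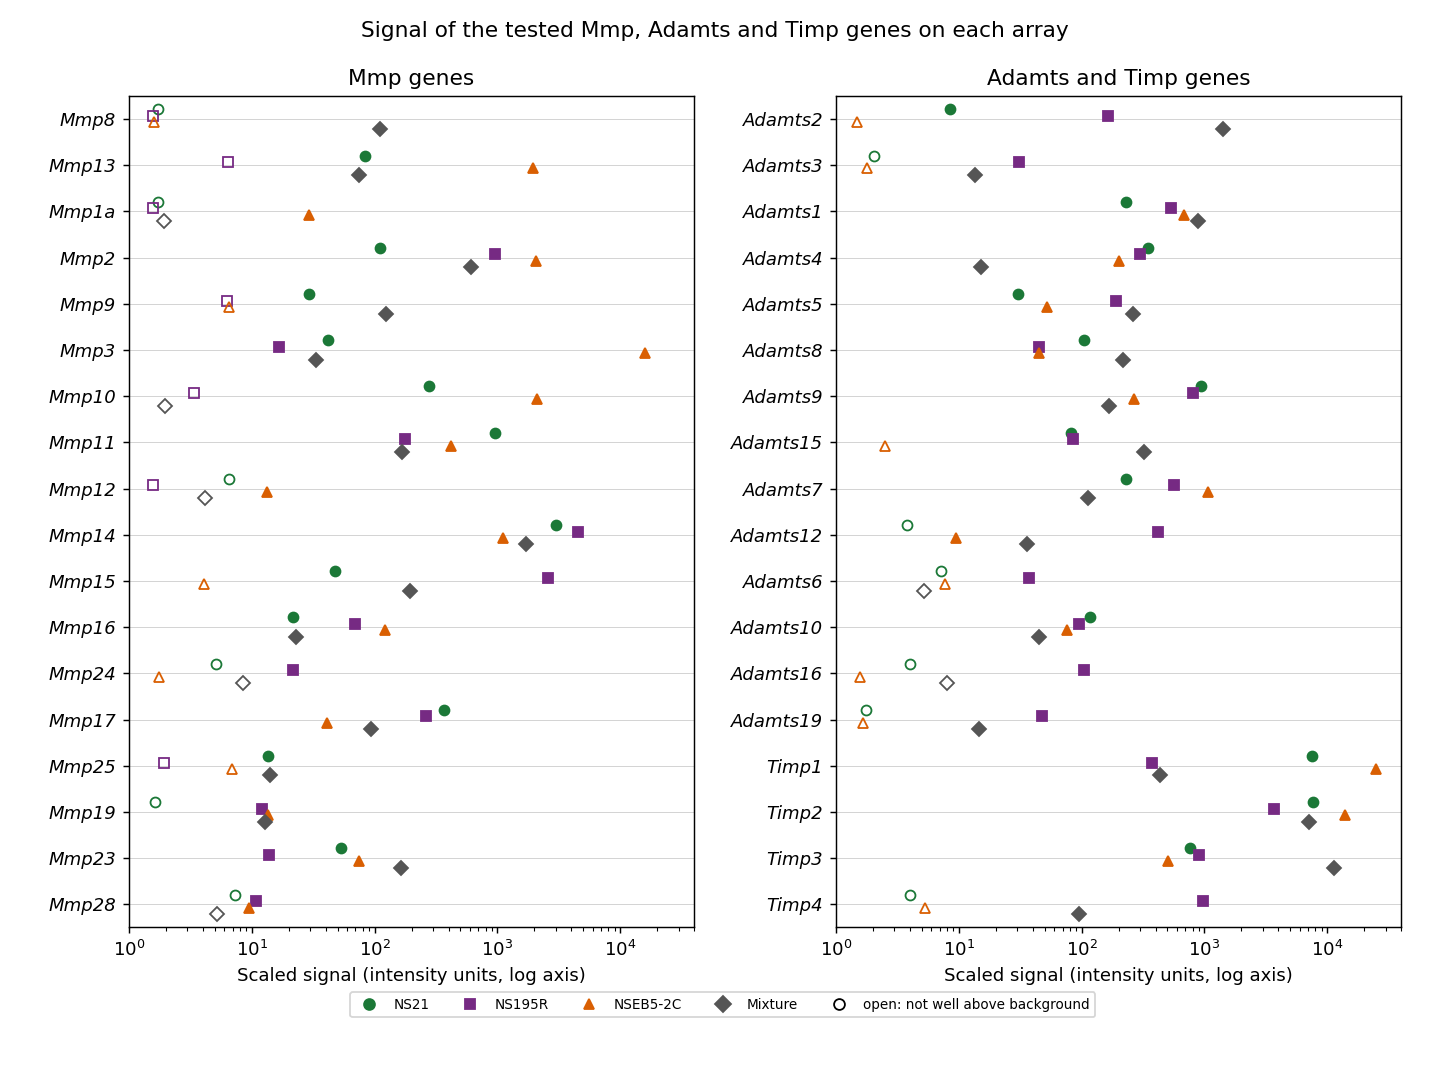
Scaled signal (horizontal axes, log scale) of the 36 tested genes, Mmp on the left and Adamts and Timp on the right, 1 point per array and open where not well above background. Mmp3, Mmp10, Mmp13 and Timp1 are farthest to the right in NSEB5-2C, and Mmp15, Adamts12, Adamts2 (among the lines) and Timp4 in NS195R.

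Genes with several probes give a check within the arrays. Of 21 genes with several probes, 14 had more than 1 probe well above background in a line. In 11 of these 14 all such probes were highest in the same line, and the exceptions were Adamts12, Adamts9 and Mmp28. In Adamts3, Adamts5, Adamts16, Mmp16 and Mmp24 only the kept probe was well above background on any array, so their order of lines has no such check. The log2 ratio to Mixture changed sign between probes in Adamts12 (-0.55 to 1.71). It differed over 2-fold with 1 sign in Adamts2 (-6.79 to -1.31), Adamts9 (0.65 to 2.58), Adamts10 (1.08 to 2.45), Adamts19 (-1.49 to -0.04) and Mmp28 (0.79 to 2.30). With limma 0 genes passed in each line against the other lines (adjusted p under 0.05), and the 36 tested members had an unadjusted p under 0.05 in 3 cases for line NS21, 13 for line NS195R and 5 for line NSEB5-2C, against 1131, 2080 and 1154 of all 19819 tested genes. That fit has 1 residual degree of freedom.

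The NPC lines as a group were then compared with Mixture, the comparison for which the arrays were made. Adamts4 rose, and Mmp8 and Timp3 fell, in 3 of 3 lines (limma, Benjamini-Hochberg adjusted p under 0.05 over 19819 genes). These were 1 higher of the 36 tested members, against 0.944% of all tested genes, and 2 lower, against 8.91% of all. At an unadjusted p under 0.05 the same numbers were found, 1 higher and 2 lower, against 15.6% and 15.4% of all. Over all 42 members the median log2 ratio was -0.31, and over every gene or transcript -0.0016. Among tested genes it was 0.02 for the 36 members and 0.44 for all, and among genes measured on every array 0.76 for 17 members and 0.71 for all.

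Adamts4, an aggrecanase that also cuts the brain proteoglycans brevican and neurocan, had 200 units in NSEB5-2C, 349 in NS21 and 300.1 in NS195R, against 15.1 in Mixture. The 3 lines lay between 13.2-fold and 23.1-fold above Mixture. The log2 ratio was 4.19 (SE 0.50, limma adjusted p = 0.0317, n = 3 lines). Its size rests on a low Mixture value, on an array whose floor was 7.68 units. With normexp background correction, which compresses dim values, the log2 ratio was 2.22 (SE 0.35, limma adjusted p = 0.0430). The median log2 ratio was 0.71 over genes that passed the background mark on every array, and relative to that shift Adamts4 lay at 3.48. It was the one member at least 4-fold above Mixture in all 3 lines, against 3.64% of all tested genes.

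Timp3 had 501 units in NSEB5-2C, 769 in NS21 and 908 in NS195R, against 11235 in Mixture. Every line lay far under Mixture, and the log2 ratio was -4.0 (SE 0.52, limma adjusted p = 0.0374), or -4.71 relative to the shift. With median scaling the ratio was -3.24 (limma adjusted p = 0.0515), which no longer passed. Mmp8, the collagenase of neutrophils, had 1.60 units in NSEB5-2C, 1.74 in NS21 and 1.57 in NS195R, none well above background, against 111 in Mixture. The mean of the lines was at least 16.1-fold under Mixture, and the single lines at least 15.1-fold to 16.6-fold. From the signals as measured the log2 ratio was -6.09 (SE 0.34, limma adjusted p = 0.00926). That SE and p-value rest on the spread of readings under the background mark, not on measured Mmp8 levels in the lines. Macrophage and neutrophil markers had a summed signal of 94.8 in NSEB5-2C, 91.2 in NS21 and 67.3 in NS195R, against 40357 in Mixture, and 11 of those 12 markers fell (limma). Of the other lists, 5 of 7 endothelial and 3 of 8 chondrocyte and bone markers fell, and 0 of 12 fibroblast and mesenchyme markers (2 at an unadjusted p under 0.05), whose median log2 ratio was -4.27. The part of these cells in the Mmp8, Timp3 and Adamts2 values was not tested.

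Without NS21, without NS195R or without NSEB5-2C none of the 3 calls passed, with adjusted p between 0.0896 and 0.139 for Adamts4, between 0.0867 and 0.167 for Timp3 and between 0.0548 and 0.0935 for Mmp8. The log2 ratios stayed between 4.02 and 4.42 for Adamts4, -4.18 and -3.75 for Timp3 and -6.14 and -6.06 for Mmp8. For the lone Mixture array the fit takes the spread of the lines. Further members lay at least 4-fold under Mixture in all 3 lines without passing limma, by the kept probes: Adamts2 (log2 ratio -6.79, SE 3.08, adjusted p = 0.246) and Mmp9 (-3.55, SE 1.18, adjusted p = 0.161). With Mmp8 and Timp3 these were 4 members, against 15.0% of all tested genes.

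Members with the widest spread between lines had ratios to Mixture that did not pass limma. For Mmp3 the log2 ratio of 2.73 came with an SE of 4.82 (limma adjusted p = 0.742), and for Timp1 3.23 came with an SE of 2.80 (limma adjusted p = 0.499). Without NSEB5-2C the Mmp3 ratio was -0.35 and the Mmp13 ratio -1.68, so that the sign of both rests on that line. For Timp1 the separate lines lay 56.4-fold above Mixture in NSEB5-2C, 17.1-fold above it in NS21 and at 0.860 of it in NS195R. Mmp15 (log2 ratio -1.29, SE 4.21, limma adjusted p = 0.856) and Timp4 (-1.80, SE 4.01, limma adjusted p = 0.787) lay far above Mixture in NS195R and far under it in NSEB5-2C. With Mmp13 and Adamts12 they were the 4 members (9.52%) with lines 4-fold to either side of Mixture, against 0.904% of all genes. The order was turned in Mmp13, where NSEB5-2C was the line above and NS195R the line under Mixture.

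**Figure D4:**
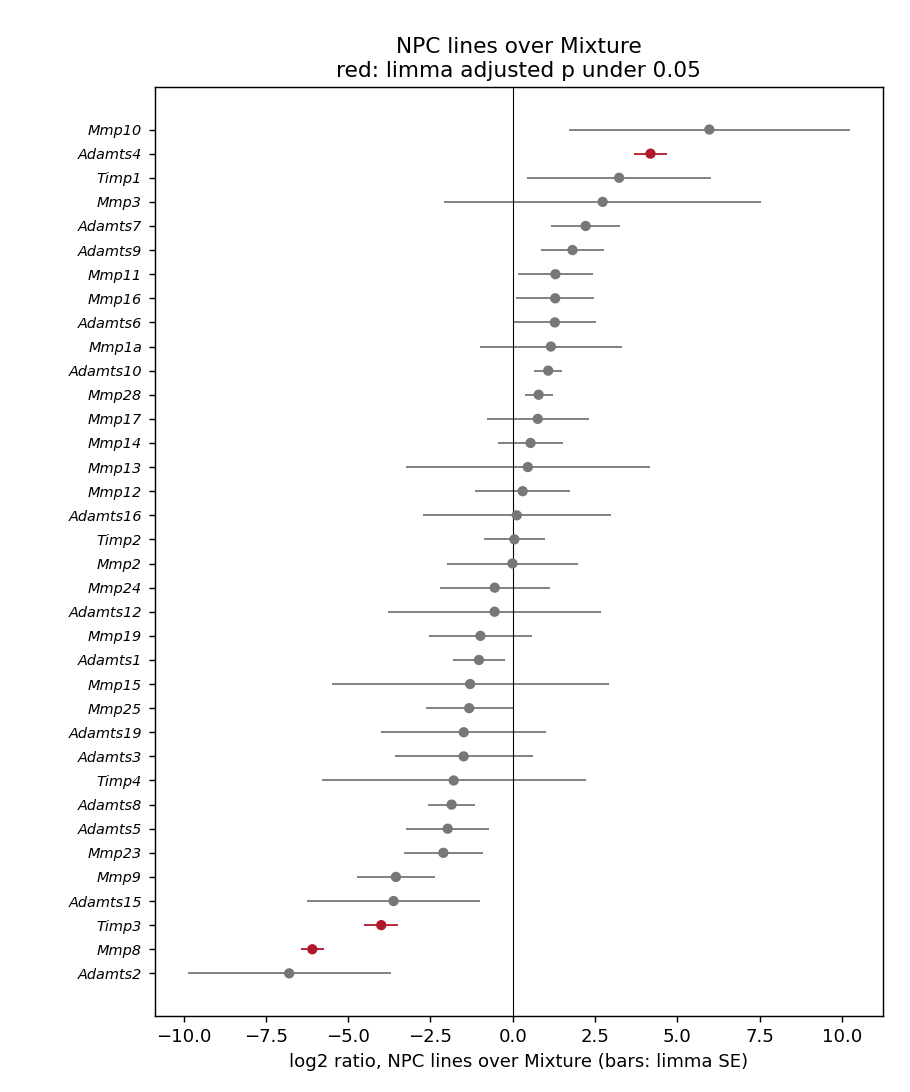
log2 ratio of the NPC lines to Mixture (horizontal axis) for the 36 tested genes, sorted, with bars of 1 limma SE. Adamts4, Timp3 and Mmp8 are drawn in red as past the test, and Mmp3, Mmp13, Mmp15 and Timp4 have bars of several log2 units to each side.

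Other genes that act with these proteases were described from lists by role, and their counts stand beside 0.944% of all tested genes called higher and 8.91% called lower. Of 14 AP-1 and ETS factors, all tested, 1 rose, Etv4 (log2 ratio 6.90, SE 0.39, limma adjusted p = 0.00926), and 0 fell. The AP-1 subunit gene Fosl1 had 1779 units in NSEB5-2C, against 26.2 in NS21, while NS195R (3.32) and Mixture (1.74) were not well above background. Its order of lines is that of Mmp10 and Mmp13, but also of Timp1 and Plaur, and its log2 ratio to Mixture was 4.95 (SE 4.15). Of the other AP-1 genes listed, Fosb, Fosl2 and Jun were highest in NSEB5-2C, and Fos, Junb and Jund in NS21. Fos was not well above background in NSEB5-2C (8.02 units, against 141 in NS21). A part of AP-1 in the Mmp values was not tested. Elf3, an ETS factor of epithelia, had a ratio of -3.59 (SE 1.57).

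The plasminogen system, whose protease plasmin activates Mmp precursors, had 2 of 8 genes lower, the liver genes Plg (log2 ratio -10.56, SE 0.80) and Serpinf2 (-11.33, SE 0.46), and 0 higher. Plat, tissue plasminogen activator, had a ratio of 2.23 (SE 0.91) and Serpine2, a protease inhibitor of brain, one of 3.28 (SE 3.1), and neither passed. Of 18 tested surface and soluble partners 1 fell, Pzp, a plasma inhibitor (-10.87, SE 0.34), and 0 rose, while Adamtsl2 had -4.40 (SE 0.79) and Itgb3 -3.03 (SE 2.38). Of 4 proteoglycan substrates 1 fell, the cartilage gene Acan (-4.38, SE 0.56, limma adjusted p = 0.0355), while Vcan had 1.42 (SE 1.12) and Ncan -0.81 (SE 4.98). ADAM sheddases (10 tested) and fibrous and basement membrane substrates (11) had 0 limma calls in either direction, with 0 sheddases and with 3 substrates (1 higher, 2 lower) under 0.05 by unadjusted p and median log2 ratios of 1.15 and -0.37. Among them Adam12 had 3.27 (SE 3.1), Adam19 1.88 (SE 1.65), Eln -6.00 (SE 2.1) and Col1a2 -5.51 (SE 3.75). Of 7 tested cytokines that induce Mmp genes 2 fell, Il1b (-6.31, SE 0.34) and Osm (-2.44, SE 0.34), and 0 rose, while Tnf had -3.03 (SE 1.20) and Tgfb1 -1.44 (SE 1.88). Without any 1 of the lines 0 genes of these lists passed.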

How the data were processed

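Spot intensity values are the deposited processed signals, which Agilent Feature Extraction 9.5.3.1 made by subtracting background, per the file headers. The deposited value table holds the same intensity at all 45018 features, and columns of other samples number 0. The 4 arrays share 1 slide and 1 scan.

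Signals of the 43379 non-control spots were log2-transformed, less percentile 75 of their array. Outlier spots were left out, copies of the 245 repeated probes were averaged, and 19 probes lacking a value were dropped. The brightest probe by its mean over arrays stands for each of 27657 genes or transcripts, named through the RefSeq table of GRCm38.p6. Of these, 19819 had a signal well above background somewhere and entered limma 3.58.1 under R 4.3.3 (functions lmFit and eBayes, two-sided, with a Benjamini-Hochberg threshold of 0.05, residual degrees of freedom 2, prior 1.335). A fold given as at least a value, against a line or group with no value well above background, is a bound. It is taken against the lowest signal well above background or the probe's own signal, whichever is higher. Log2 ratios to Mixture and limma use dim signals as measured, except where dim values are said to be raised. NPC replicates 1, 2 and 3 are NS21, NS195R and NSEB5-2C. The fits were tested on simulated data, in which Mixture was given the spread of the lines. Whether the lone Mixture array varies like the lines was not tested. No build for the probes was given in the sources used here, so probe positions are not printed. Promoter strings come from RefSeq (GRCm38.p6).

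All members with a 2-fold line difference, a limma call or a 4-fold ratio in all lines are named, with all Timp genes, and per list the called genes and up to 2 others with the largest ratio. The members and lists were chosen with earlier results of these data known. Alternatives covered background correction, scaling, the dim filter, the probe per gene, the variance prior, dim values, fold size and leaving out each line.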

Additional observations from a re-analysis of the deposited data

Results flagged for a closer look

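For some genes the lines fell to either side of Mixture, 1 line exceeding it 4-fold or more and another lying as far under it, with dim values raised to the floor of their array. This held for 4 of the 42 genes (9.52%), against 0.904% of all genes or transcripts, and these differences to either side of Mixture were not tested. Mmp15 spanned 8.59 on the log2 scale, with 3.73 in NS195R and -4.86 in NSEB5-2C. Mmp13 spanned 8.19, with 4.73 in NSEB5-2C and -3.46 in NS195R. Timp4 spanned 7.19, with 3.36 in NS195R and -3.83 in NSEB5-2C. Adamts12 spanned 5.83, with 3.54 in NS195R and -2.29 in NS21, and its probes disagree on the highest line. In each gene the lowest line was not well above background, so the spans are lower bounds.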

How the results depend on the processing

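No paired analysis was possible because Mixture has 1 array and the lines carry no pair numbers. Leaving out any 1 line ended all calls, with 0 genes higher and 0 lower, 0 members higher and 0 lower and 0 of the pathway lists (limma, at an unadjusted p under 0.05 between 1432 and 2249 genes higher and 2817 and 3315 lower). So did keeping only genes well above background on all 4 arrays (0 higher and 0 lower genes, 0 members, 0 list genes, with 3086 and 710 at an unadjusted p under 0.05). Genes called higher, 187 in the report's setting, numbered 974 with normexp, 587 with quantile normalization, 525 without the filter on dim genes, 473 with an intensity trend and 501 with dim values raised. Median scaling left 1 member called lower, Mmp8. It moved the median log2 ratio of all tested genes to 1.19, against 0.44. The same 3 members were called under the other 6 alternatives. Their sizes moved with normexp, to log2 ratios of 2.22 for Adamts4, -1.48 for Mmp8 and -3.89 for Timp3.

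Members 2-fold above both other lines numbered in NS21 1 with normexp, 1 with median scaling and 1 at 4-fold, in NS195R 6 with normexp, 6 with the mean of probes and 1 among genes measured on all arrays, and in NSEB5-2C 10 with median scaling, 3 among genes measured on all arrays and 3 at 4-fold. Members below both other lines numbered 3 in NSEB5-2C, 1 in NS21 and 3 in NS195R at 4-fold, and 3 in NSEB5-2C among genes measured on all arrays. In any line the count was 16 at 4-fold and 14 among genes measured on all arrays, and the 4-fold span held for 12 members with normexp and 10 among genes measured on all arrays, alternatives added after the values were seen.

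Log2 ratios to Mixture that changed sign did not pass limma in any setting, and the cause was not tested. Adamts12 was 0.49 with normexp, 0.19 with quantile normalization, 0.20 with median scaling, 0.77 with the mean of probes and between -2.60 and 0.80 without 1 line. With normexp Adamts3 was 0.034, Mmp15 0.089, Mmp19 0.0054, Mmp2 0.13, Mmp24 0.061 and Timp4 0.19. Mmp2 was 0.74 and Mmp24 0.21 with median scaling, Mmp24 was 0.24 and Timp2 -0.12 with quantile normalization, Mmp24 was 0.28 with dim values raised, and Adamts16 was -0.013 with the mean of probes. Without 1 line, the ratios ran between -1.68 and 2.46 for Mmp13, -3.81 and 0.84 for Mmp15, -0.46 and 0.32 for Mmp24, -0.35 and 4.6 for Mmp3 and -0.42 and 0.55 for Timp2, with the sign turned without NSEB5-2C. They ran between -1.52 and 0.0063 for Mmp19 and -0.90 and 1.22 for Mmp2, with the sign turned without NS21. Dim signal limits Mmp1a, Mmp12, Mmp19, Mmp24, Mmp25 and Mmp28, which lay under 30 units on every array.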

Other observations

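Genes of the plasminogen system and brain proteoglycans, picked after their values were seen, also differed widely between the lines. Plau, urokinase, had 1322 units in NSEB5-2C, against 17.1 in NS21, 13.4 in NS195R and 151 in Mixture. Its receptor gene Plaur had 4242 units in NSEB5-2C and 3253 in NS21, was not well above background in NS195R (8.59), and had 289 in Mixture. Plaur, like Timp1 and Mmp10, was thus lowest in NS195R.

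Of the brain proteoglycans, Bcan and Ncan were highest in NS195R. Bcan, brevican, had 22521 units in NS195R, against 73.6 in Mixture, while NS21 (7.25) and NSEB5-2C (1.76) were not well above background. Ncan, neurocan, had 15183 units in NS195R, against 98.6 in NS21, 7.89 (not well above background) in NSEB5-2C and 398 in Mixture. Adamts4, whose enzyme cuts both, differed by no more than 1.75-fold between the same lines. Reck, a membrane inhibitor of Mmp enzymes, had 7.0 units (not well above background) in NSEB5-2C, against 121 in NS21, 93.6 in NS195R and 114 in Mixture.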
